A study of Mus musculus with 4 samples.

Results

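The nuclear-encoded genes of the mitochondrial respiratory chain were examined in livers of mice aged 3, 9, 15 and 21 months. Members were all gene symbols that begin with Nduf, Uqcr, Cox4 to Cox8 or Atp5, together with Sdha to Sdhd, which gave 92 of the 33924 symbols of the count files. By name, 42 belonged to complex I, 4 to complex II, 8 to complex III, 19 to complex IV and 19 to complex V. The choice rests on names, so that it also takes in 4 assembly factors (Ndufaf1 to Ndufaf4), genes such as Cox4nb and Atp5s whose products are no subunits, and Atp5l-ps1 and Atp5l2, copies of Atp5l of which the latter is annotated as a pseudogene, and it leaves out subunits with other names such as Cyc1.

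All libraries were made from liver RNA of mice labelled as strain C57BL6, which were male C57BL/6Rj mice by the methods of the study. Each age was represented by a single library, made from equal amounts of RNA of 24 mice (6 times of the day, 4 mice each), so that daily rhythms and differences between mice were averaged within a pool and no replicate error exists for any age. Capped 5' ends were sequenced with 35 base reads, and the 4 barcoded libraries shared a lane. The values are raw counts of reads per gene. Since an age and its library cannot be told apart, every comparison below is one of 4 libraries, and intervals and the chi-square test cover counting error only. In such pools, fewer cells of a type and less RNA per cell cannot be told apart either.

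The respiratory chain passes electrons from NADH (complex I) and succinate (complex II) through complex III to oxygen at complex IV, and complex V, the ATP synthase, uses the resulting proton gradient to make ATP. Most subunits are encoded in the nucleus and imported, whereas a small set of membrane subunits of complexes I, III, IV and V is encoded in mitochondrial DNA. Hepatocytes are rich in mitochondria and draw on them for gluconeogenesis, ureagenesis and fatty acid oxidation.

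The counts on genes summed to between 525772 at 15 months and 958586 at 9 months, and 10 genes alone took between 25.7% and 29.2% of them. Between 72.2% and 76.7% of the records of a library had no unique alignment and were therefore in no gene count. Scaled to the total of the counts on genes as CPM, the 6 hepatocyte markers took 90383 to 100967. Those of Kupffer cells took 554 to 785 (5 of 6 symbols in the files), of sinusoidal endothelium 337 to 475, of stellate cells 315 to 553, of cholangiocytes 6.26 to 24.5 and of B and T cells 1.05 to 16.3. The summed CPM of stellate, Kupffer and B and T cell markers was lowest, and that of the endothelium highest, at 3 months, the library against which the others are compared. The B and T cell sums rested on 1 to 12 counts. Single markers did not all follow these sums. From 3 to 9 months, Lyve1 rose from 20 to 49 counts while the other endothelial markers fell. Emr1 of Kupffer cells fell from 66 to 47 and Clec4f stayed at 131, while the others in the files rose. Des of stellate cells fell from 4 to 1, while the others rose. The part of cell types in the results was not tested. Of 6 markers of heart and skeletal muscle, 5 were at 0 in every library and Tnnt2 had 1 count.

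Of the 92 members, 84 had a count in at least 1 library and 76 had one in every library. A test across libraries was made for genes with at least 80 counts summed over the 4 libraries, which left 2976 genes, among them 59 members (24 of complex I, 4 of II, 7 of III, 10 of IV and 14 of V). The other 33 members had sums between 0 and 77 (median 22). Counts were divided by a scale factor for each library, taken from the geometric mean of the 8704 genes with a count in every library, which is the scale of the centered log-ratio (clr).

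The proximal promoters of the members carried some short motifs more often than those of other genes. RefSeq windows from 250 bases before to 50 bases after the start (build GRCm38.p6) were at hand for 74 members, and both strands were searched for exact matches. The motif of the factor NRF1, a regulator of respiratory genes, was searched as GCGCA followed by any base and GCGC. It was present in 18 of these members (24.3%) and in 7.17% of 17492 protein-coding genes. The latter were taken whether or not they had counts in these libraries. The ETS motif CCGGAAG, which GABP also recognises, was found in 17 members (23%) against 12.9%, and the YY1 motif AAGATGGC in 11 (14.9%) against 3.57%. The letters TATAAA were in 7 members (9.46%) against 14.8%. None of these motifs contains another, and a match is a description of sequence only. The following stretches are shown because they lie at the starts of members on which the results below turn (up to 30 bases after the start); capitals mark the motif, and a motif on the other strand appears as its reverse complement.
Atp5g3, NRF1, chr2:73911297-73911339, minus strand: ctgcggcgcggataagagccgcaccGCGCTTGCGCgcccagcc
Atp5h, NRF1, chr11:115420026-115420085, minus strand: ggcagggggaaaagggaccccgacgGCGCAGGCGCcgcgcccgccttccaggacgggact
Uqcr11, ETS, chr10:80406856-80406912, minus strand: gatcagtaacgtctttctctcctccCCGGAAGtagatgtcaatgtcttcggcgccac
Cox8a, ETS, chr19:7217590-7217646, minus strand: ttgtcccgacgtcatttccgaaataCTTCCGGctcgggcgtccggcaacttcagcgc
Atp5f1, YY1, chr3:105959234-105959291, minus strand: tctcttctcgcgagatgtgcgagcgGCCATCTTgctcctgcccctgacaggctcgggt
Ndufs7, TATAAA, chr10:80249325-80249380, plus strand: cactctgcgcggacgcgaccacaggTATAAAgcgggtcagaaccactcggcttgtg
Among the members with a window, the NRF1 motif was found in 8 of 37 of complex I, 2 of 3 of complex II, 1 of 5 of complex III, 1 of 13 of complex IV and 6 of 16 of complex V. Of the members shown above, Atp5g3 and Atp5h carried it, and Uqcr11, Cox8a, Atp5f1 and Ndufs7 did not. Whether the motif goes with the spread of the counts was not tested. Ndufa8 carried it at a variance of clr of 0.152, and Atp5d did not at 0.00877.

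The members together took 0.748%, 0.727%, 0.662% and 0.682% of the counts on genes at 3, 9, 15 and 21 months (95% Wilson intervals 0.731 to 0.766, 0.711 to 0.745, 0.640 to 0.684 and 0.663 to 0.701). Thus their share was highest in the 3 and 9 month libraries and lowest at 15 months. On the clr scale, their summed counts were at 0.997 (95% Clopper-Pearson interval 0.964 to 1.03), 0.808 (0.776 to 0.842) and 0.887 (0.855 to 0.919) of the 3 month value at 9, 15 and 21 months. The counts of 30 of the 59 tested members differed between the 4 libraries (50.8%; chi-square test with 3 degrees of freedom, Benjamini-Hochberg adjusted p of 0.05), beside 45.9% of all genes tested. This share of calls is near the background and is no result about the members.

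Against 3 months, the median log2 ratio of the 59 members was -0.00 at 9, -0.23 at 15 and -0.09 at 21 months, and that of all 2976 genes tested was -0.03, -0.14 and -0.03. The difference between both medians was therefore 0.03, -0.09 and -0.05. Of the members, 8 were at least 1.5-fold higher and 9 at least 1.5-fold lower at 9 months (background 12.1% higher and 14.7% lower). At 15 months 6 were higher and 16 lower (background 11.6% and 21.8%), and at 21 months 4 were higher and 11 lower (background 12.4% and 16.7%). The 3 comparisons share the 3 month library, so that a deviation of this library enters all of them. Cytosolic ribosomal protein genes (33 tested) had medians of -0.11, -0.22 and -0.07, and proteasome subunit genes (22 tested) of -0.28, -0.40 and -0.20.

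The complexes, however, differed from each other. The summed counts of complex I were 1425, 1719, 941 and 1333 at 3, 9, 15 and 21 months, and those of complex IV were 1793, 1588, 714 and 1158. On the clr scale, complex I was 1.23-fold (95% Clopper-Pearson interval 1.15 to 1.32), 1.10-fold (1.01 to 1.19) and 1.18-fold (1.10 to 1.28) of its 3 month value at 9, 15 and 21 months. Complex IV was at 0.906 (0.846 to 0.970), 0.662 (0.606 to 0.722) and 0.817 (0.758 to 0.880) of it. Complex I was thus higher in all 3 older libraries than at 3 months and complex IV lower in all 3.

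Complex II summed to 368, 352, 155 and 265 counts, with ratios of 0.978 (0.843 to 1.14), 0.700 (0.577 to 0.847) and 0.911 (0.775 to 1.07) to 3 months. Complex III summed to 1144, 1023, 510 and 694 counts, with ratios of 0.914 (0.840 to 0.996), 0.741 (0.666 to 0.823) and 0.767 (0.697 to 0.844). Complex V, the one with the most counts, had 2425, 2291, 1158 and 1567, with ratios of 0.966 (0.912 to 1.02), 0.794 (0.740 to 0.852) and 0.817 (0.766 to 0.871). All 3 were lowest relative to 3 months in the 15 month library, the shallowest of the 4.

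**Figure D1:**
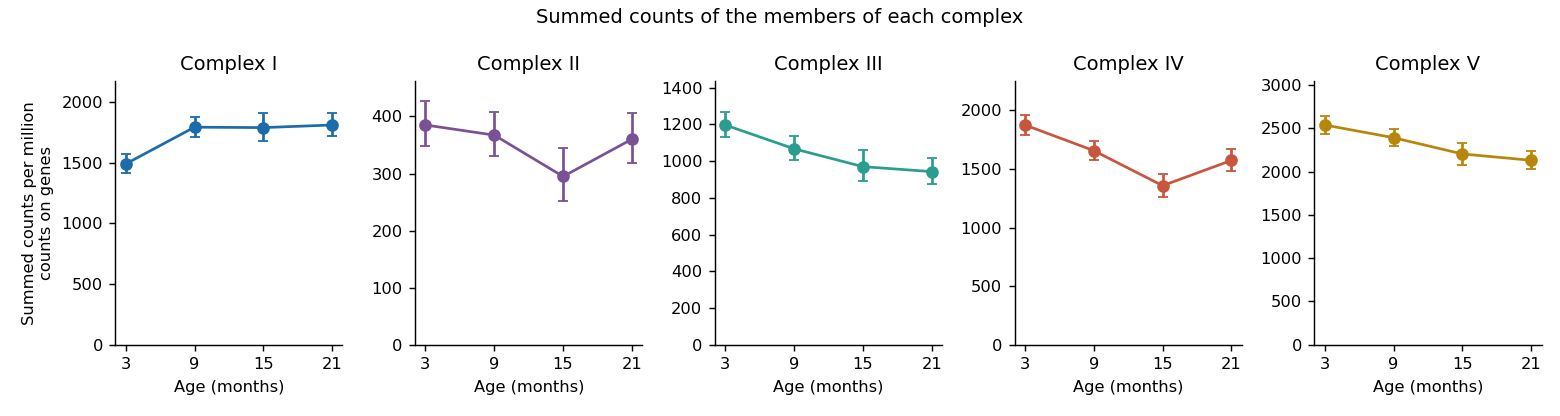
Summed counts of the members of each complex, in CPM (y axis, from 0), against age in months (x axis), with 1 pooled library per age and bars for the 95% Wilson interval (counting error only). Complex I goes from 1491 at 3 months to between 1790 and 1811 in the other libraries, whereas complex IV goes from 1876 to 1358 at 15 months.

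A ratio of 2 complexes within a library does not depend on the scale factor. Complex I over complex IV was 0.795 at 3 months (95% Clopper-Pearson interval 0.741 to 0.852), 1.08 at 9 months (1.01 to 1.16), 1.32 at 15 months (1.19 to 1.45) and 1.15 at 21 months (1.06 to 1.25). The interval of the 3 month library did not overlap those of the other libraries. Complex I over complex V likewise was 0.588, 0.750, 0.813 and 0.851, and complex I over complex III was 1.25, 1.68, 1.85 and 1.92. Complexes III and V kept a nearly constant ratio of 0.472, 0.447, 0.440 and 0.443, with overlapping intervals.

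The ratio of complex I over complex IV was 0.771, 1.05, 1.21 and 1.06 without Ndufs7. Among the tested members of complex I, Ndufs7 had the highest ratios to 3 months at 15 and 21 months. Without Ndufs7, complex I at 15 months was 1.04-fold of its 3 month value, with an interval of 0.952 to 1.13 that includes 1. Reads that match 2 places are in no gene count, and 32 of 91 members with a protein-coding transcript had, within the first 100 bases of a transcript, at least 1 window of 35 bases found again elsewhere in the mouse genome when 1 mismatch was allowed. The 59 members that had none are not the 59 tested, and only 38 of them were tested. With them, complex I over complex IV was 1.15, 1.90, 2.01 and 1.5, again lowest at 3 months. Complex IV then rested on 4 tested genes, and Cox8a alone gave 342 of its 751 counts at 3 months. Ndufa4 carries a complex I name although its product is now placed in complex IV. Complex I without it was at 1.28 (1.18 to 1.38), 1.21 (1.10 to 1.32) and 1.24 (1.14 to 1.35) of its 3 month value, and complex IV with it at 0.931, 0.666 and 0.838.

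**Figure D2:**
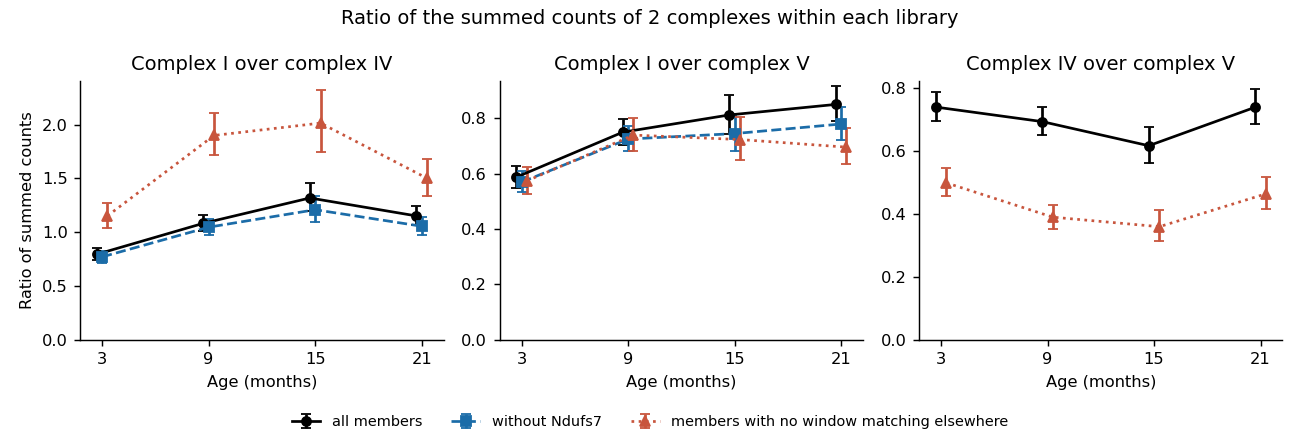
Ratio of the summed counts of 2 complexes within each library (y axis, from 0) against age in months (x axis); bars are 95% Clopper-Pearson intervals (counting error only), and small shifts along the x axis separate the 3 sets of members. Complex I over complex IV is lowest at 3 months in each set, at 0.795 for all members, 0.771 without Ndufs7 and 1.15 for members with no window that matches elsewhere.

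The medians over single members also put complex I above complex IV. Relative to the median of all genes tested, the median log2 ratio of complex I was 0.42, 0.31 and 0.12 at 9, 15 and 21 months, and that of complex IV was -0.19, -0.57 and -0.16. Complex II (0.01, -0.54 and -0.15), with only 4 genes, was nearer to complex IV at 15 months. Complex III (0.01, -0.18 and 0.02) and complex V (0.04, -0.05 and -0.11) lay between both, although the summed counts of complex III were the lowest of the 5 relative to 3 months at 21 months. Of the 24 tested members of complex I, 4 were lower at both 15 and 21 months and 10 were higher at both, whereas of 10 members of complex IV, 8 were lower at both and 1 was higher. Among all genes tested 39.6% were lower and 26.7% higher at both, and among all 59 members 30 and 14.

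**Figure D3:**
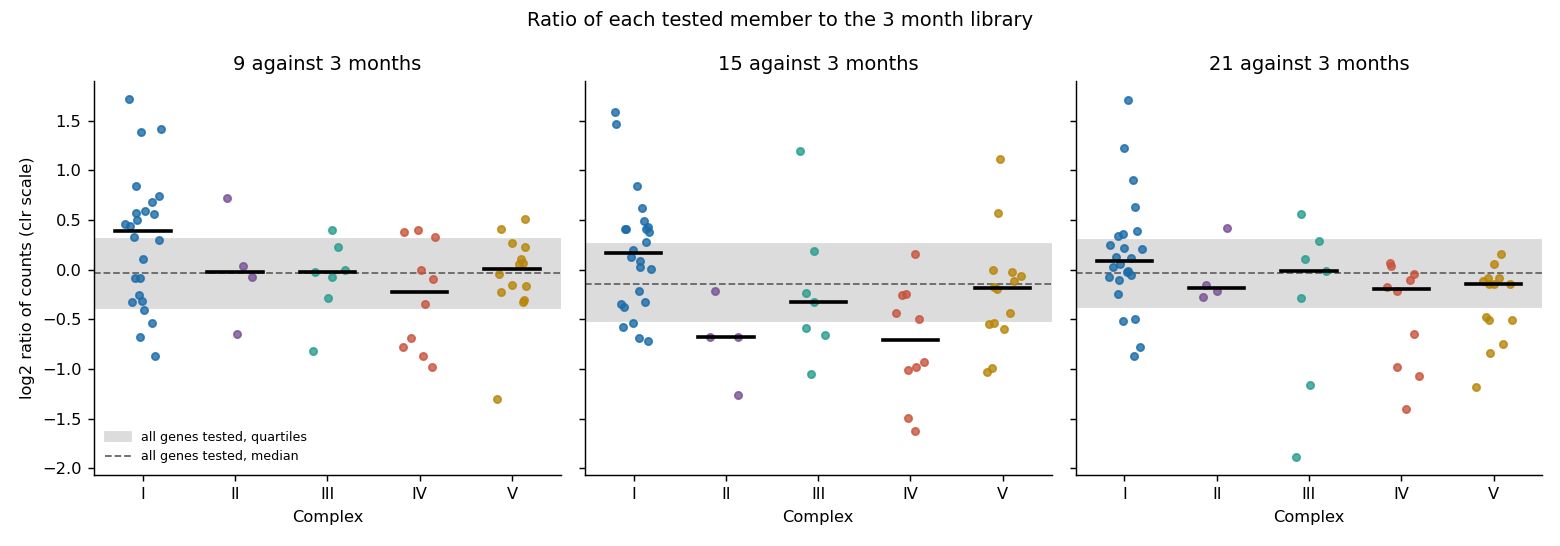
Log2 ratio of the count of each of the 59 tested members to the 3 month library on the clr scale (y axis), by complex (x axis), at 9, 15 and 21 months; points are genes, black lines medians of a complex, and the grey band and dashed line are the quartiles and the median of all 2976 genes tested. The median of complex I is above the dashed line in each panel and that of complex IV below it.

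Complex I takes electrons from NADH. Its core subunits carry the flavin and the iron-sulphur clusters. Of 6 core subunits tested, 4 differed between the libraries (background 45.9% of all genes tested). Ndufs7, which holds the last iron-sulphur cluster before ubiquinone, had 43, 57, 78 and 111 counts at 3, 9, 15 and 21 months, although the 15 and 21 month libraries were shallower than the 3 month library. Its ratio to 3 months was 1.36 (0.896 to 2.06), 3.02 (2.05 to 4.48) and 3.26 (2.28 to 4.76), with an adjusted p of 5.31e-14 in the chi-square test. Windows that match elsewhere made up 12.9% of those of its transcripts.

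Ndufv2, the partner of the flavin-binding Ndufv1, had 18, 58, 30 and 22 counts, with ratios of 3.30 (1.91 to 5.94), 2.77 (1.5 to 5.28) and 1.55 (0.791 to 3.06). It was lowest at 3 months and highest at 9 months (chi-square test, adjusted p = 4.78e-05). Ndufs8, another iron-sulphur protein, had 51, 75, 19 and 48 counts and was lowest at 15 months (adjusted p = 0.00864 in that test). Thus Ndufs7 was highest at 21 months, and Ndufv2 and Ndufs8 at 9 months. Ndufv1 had 62, 57, 25 and 51 counts and Ndufs1 had 21, 33, 17 and 18, and neither passed the test. Ndufs3 had 6 to 17 counts.

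Accessory subunits surround the core and serve assembly and stability. Of 17 tested, 6 differed between the libraries (background 45.9% of all genes tested), as did Ndufa4. Ndufa10 had 40, 70, 37 and 59 counts, with ratios of 1.79 (1.20 to 2.71), 1.54 (0.956 to 2.47) and 1.87 (1.23 to 2.86), and was lowest at 3 months. Ndufa1 had 13, 34, 11 and 24 counts and was also lowest at 3 months on the scaled counts. Ndufb3 had 25, 64, 27 and 14 counts, with a ratio of 2.62 (1.63 to 4.34) at 9 months and of 0.708 (0.340 to 1.42) at 21 months. These 3 were all higher at 9 than at 3 months.

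Ndufa8, in contrast, had 69, 37, 55 and 38 counts and a ratio of 0.548 (0.357 to 0.829) at 9 months. Ndufv3 had 52, 85, 27 and 54 counts and Ndufa3 had 41, 59, 15 and 32, and both were highest at 9 and lowest at 15 months. Ndufa4 alone took 18.2% of the counts of complex I, with 306, 322, 127 and 233 counts and a ratio of 0.690 (0.557 to 0.851) at 15 months. Ndufb9, second in counts, had 79, 95, 63 and 80 counts, with ratios of 1.23 (0.903 to 1.68), 1.33 (0.937 to 1.87) and 1.28 (0.926 to 1.77), and did not pass the test. The other tested accessory subunits had sums between 84 and 189 counts.

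Among the 18 members of complex I under 80 counts, several encode subunits that belong to the complete complex. Ndufs5 had 0, 1, 0 and 0 counts, Ndufb4 had 1, 4, 1 and 12, and Ndufc1 had 1, 5, 8 and 8. Windows that match elsewhere made up 25.5%, 15.2% and 36.4% of theirs. Ndufb11 had 7, 39, 4 and 25 counts, with 50% of windows matching elsewhere, and Ndufab1, the mitochondrial acyl carrier protein, had 7, 11, 2 and 2, with 76.2%. Ndufa4l2, a paralogue of Ndufa4, had 4, 0, 0 and 3 counts, and the 4 assembly factors had 0 to 17 counts in a library. These members were below the minimum for the test. The counting interval nevertheless excluded 1 for some of them, such as Ndufb11, with a ratio of 5.70 (2.52 to 15.1) at 9 months and of 4.52 (1.90 to 12.4) at 21 months. With a minimum of 40 counts in sum, 35 members instead of 30 passed the chi-square test.

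Complex II, succinate dehydrogenase, is also an enzyme of the citrate cycle and is encoded in the nucleus alone. All 4 genes were tested and 1 differed between the libraries (background 45.9%). Sdhb, the iron-sulphur subunit, had 36, 58, 9 and 38 counts, with ratios of 1.65 (1.07 to 2.57), 0.416 (0.176 to 0.879) and 1.33 (0.824 to 2.17) to 3 months (chi-square test, adjusted p = 0.00123). Its 15 month value was the lowest of the 4 and rests on 9 reads.

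Sdha, the flavoprotein, had 151, 140, 78 and 107 counts, with ratios of 0.948 (0.748 to 1.20), 0.859 (0.645 to 1.14) and 0.896 (0.693 to 1.16). Its variance of clr of 0.00440 was below the 0.00898 that counting noise alone gives for these counts. The membrane anchors Sdhc (109, 109, 41 and 71 counts) and Sdhd (72, 45, 27 and 49) had ratios below 1 at 15 and 21 months and did not pass the test (adjusted p = 0.0593 and 0.0918).

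Complex III hands electrons from ubiquinol to cytochrome c. Of 7 tested members, 4 differed between the libraries (background 45.9%), and 3 of these were lower at both 15 and 21 months. Of all 7 tested, 4 were lower at both, beside 39.6% of all genes tested. Uqcr11, a small subunit, had 173, 96, 66 and 37 counts, with ratios of 0.567 (0.437 to 0.732), 0.634 (0.470 to 0.847) and 0.270 (0.184 to 0.388), and an adjusted p of 6.06e-13 in the chi-square test. Its highest value was at 3 and its lowest at 21 months, and 47% of its windows matched elsewhere.

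Uqcrc2, a core protein, had 158, 127, 46 and 56 counts, with ratios of 0.822 (0.646 to 1.04), 0.484 (0.341 to 0.676) and 0.448 (0.324 to 0.612), and none of its windows matched elsewhere. Its partner Uqcrc1 had 88, 82, 45 and 69 counts, with ratios of 0.953 (0.697 to 1.30), 0.850 (0.580 to 1.23) and 0.991 (0.713 to 1.37). The 2 core proteins, which are present together in the complex, therefore had counts that went apart at 21 months, with intervals that did not overlap.

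Uqcrh, the hinge protein that docks cytochrome c, took 47.6% of the counts of complex III, with 533, 514, 213 and 346 counts and ratios of 0.986 (0.872 to 1.12), 0.664 (0.564 to 0.780) and 0.821 (0.715 to 0.942). Of its windows, 52.8% matched elsewhere. Without Uqcrh, complex III was at 0.852 (0.756 to 0.960), 0.808 (0.701 to 0.930) and 0.720 (0.630 to 0.823) of its 3 month value. Uqcrfs1, the Rieske iron-sulphur protein, went the other way, with 24, 31, 33 and 28 counts and a ratio of 2.29 (1.31 to 4.04) at 15 months. Uqcrq had 120, 117, 82 and 116 counts and Uqcr10 had 48, 55, 23 and 41, and neither passed the test. Uqcrb, a subunit that binds ubiquinone, had only 0, 1, 2 and 1 counts, and 42.4% of its windows matched elsewhere.

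Complex IV, cytochrome c oxidase, reduces oxygen. Its nuclear subunits surround a core encoded in mitochondrial DNA. All 10 isoforms that are common to most tissues were tested and 7 differed between the libraries (background 45.9%). Ratios to 3 months were below 1 at both 15 and 21 months for each of these 7. Of all 10 tested, 8 had such ratios, beside 39.6% of all genes tested. Cox5a and Cox5b, which bind on the matrix side, had 114, 69, 36 and 43 counts and 87, 43, 17 and 26 counts. For Cox5b the ratios were 0.505 (0.342 to 0.736), 0.325 (0.181 to 0.551) and 0.378 (0.234 to 0.591), and for Cox5a 0.619 (0.452 to 0.842), 0.525 (0.350 to 0.770) and 0.477 (0.328 to 0.683). Both were highest at 3 months, with all 3 intervals below 1. Of the windows of Cox5b, 26.5% matched elsewhere, and none of those of Cox5a did.

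Cox7c, a small membrane subunit, had 150, 80, 32 and 60 counts, with ratios of 0.545 (0.410 to 0.720), 0.355 (0.234 to 0.522) and 0.506 (0.368 to 0.687). It was also highest at 3 months (chi-square test, adjusted p = 3.65e-09). Cox8a had 342, 195, 102 and 239 counts, with ratios of 0.583 (0.486 to 0.697), 0.496 (0.394 to 0.620) and 0.884 (0.746 to 1.05). Its value at 21 months was close to that at 3 months, unlike that of Cox7c. Cox7b had 131, 120, 40 and 66 counts and ratios of 0.937 (0.725 to 1.21), 0.508 (0.347 to 0.728) and 0.637 (0.467 to 0.863). Windows that match elsewhere made up 23.1% of those of Cox7c and 34.8% of those of Cox7b.

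Cox6b1 and Cox6a1 differed between the libraries mainly through a high value at 9 months. Cox6b1, which took 21.5% of the counts of the complex, had 323, 397, 163 and 247 counts and a ratio of 1.26 (1.08 to 1.46) at 9 months. Cox6a1 had 144, 183, 73 and 98 counts and a ratio of 1.30 (1.04 to 1.63). Without Cox6b1, the complex was at 0.829 (0.767 to 0.895), 0.623 (0.564 to 0.688) and 0.784 (0.721 to 0.852) of its 3 month value. Cox4i1, a subunit often used as a mitochondrial loading control, had 145, 187, 97 and 120 counts, with ratios of 1.32 (1.06 to 1.65), 1.11 (0.851 to 1.45) and 1.05 (0.815 to 1.34), and was the only tested gene of the complex above its 3 month value in all libraries. Cox6c (187, 182, 83 and 138 counts) and Cox7a2 (129, 99, 55 and 105) did not pass the test.

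**Figure D4:**
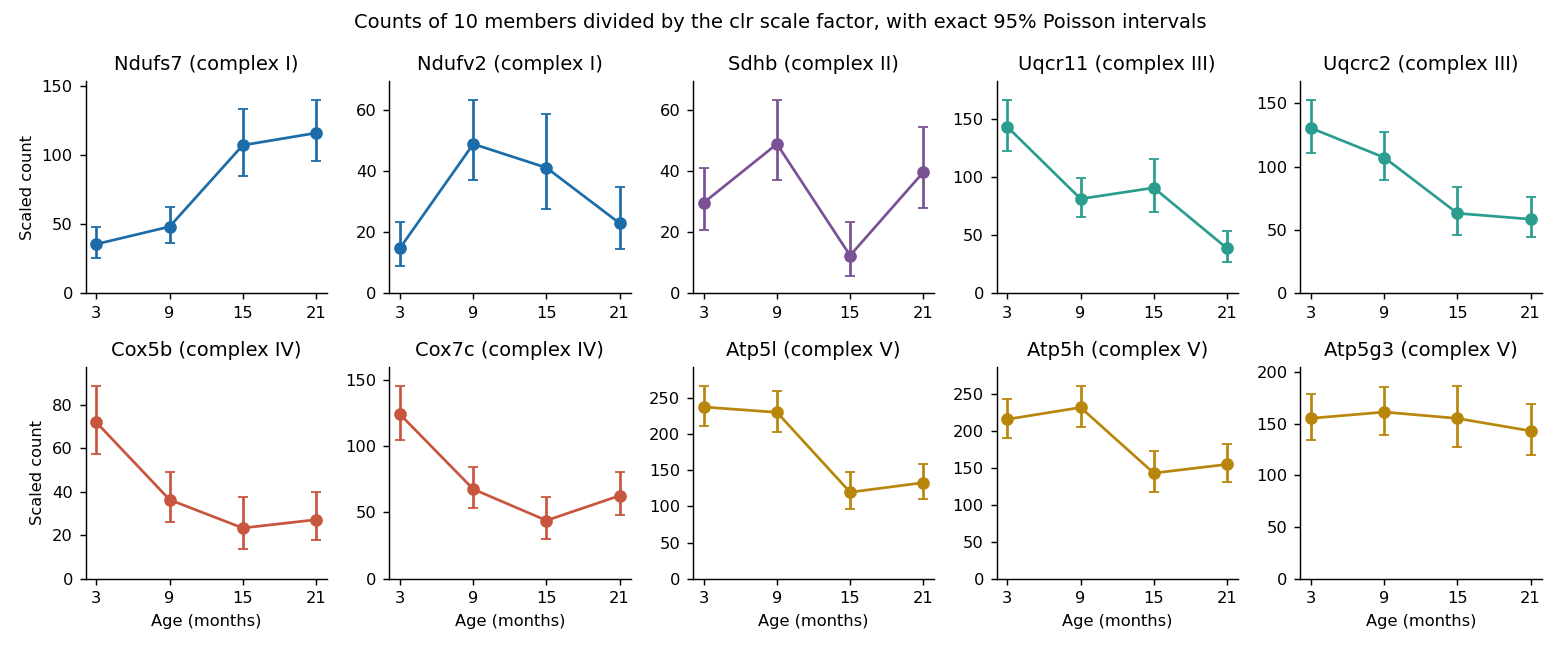
Counts of 10 members divided by the clr scale factor of each library (y axis, from 0) against age in months (x axis), with exact 95% Poisson intervals for counting error. Ndufs7 goes up to a scaled count of 116 at 21 months and Uqcr11 down to 38.6, Cox5b and Cox7c are highest at 3 months, and Atp5g3 stays within its intervals.

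The isoforms that are named for heart, muscle, lung or testis were nearly absent. Cox4i2, Cox6a2, Cox6b2, Cox7b2, Cox8b and Cox8c had 0 counts in all libraries, and Cox7a1 had 1 count at 15 months. A count of 0 allows up to 3 counts, or 3.14, 3.13, 5.71 and 4.08 CPM at 3, 9, 15 and 21 months. Cox7a2l, which takes part in supercomplexes, had 20, 11, 12 and 16 counts. Cox4nb, a neighbour of Cox4i1 that encodes no subunit, had 21, 22, 3 and 0 counts.

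Complex V consists of the catalytic F1 part, the proton-carrying c-ring, the peripheral stalk and further membrane subunits. Of 14 tested members, 7 differed between the libraries (background 45.9%), 5 of them lower at both 15 and 21 months. Of all 14 tested, 11 were lower at both, beside 39.6% of all genes tested. Of the 5 subunits of F1, Atp5b alone passed the test. Their median variance of clr was 0.00877, but that of Atp5c1 was 0.0511, above its counting noise of 0.0255. Atp5b, the catalytic beta subunit, had 300, 354, 167 and 265 counts, with ratios of 1.21 (1.03 to 1.41), 0.925 (0.761 to 1.12) and 1.12 (0.943 to 1.32) and an adjusted p of 0.0355. Atp5a1, its alpha partner, had 273, 239, 143 and 196 counts, with ratios of 0.895 (0.749 to 1.07), 0.871 (0.706 to 1.07) and 0.908 (0.752 to 1.09). Atp5c1 (56, 64, 23 and 40 counts), Atp5d (227, 179, 131 and 162) and Atp5e (111, 114, 59 and 83) did not pass the test.

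The peripheral stalk, which holds F1 in place, was less even, with a median variance of clr of 0.0822 over 4 subunits. Atp5f1, subunit b, had 217, 182, 64 and 102 counts, with ratios of 0.858 (0.700 to 1.05), 0.490 (0.365 to 0.651) and 0.594 (0.465 to 0.755). Atp5h, subunit d, had 261, 274, 104 and 148 counts, with ratios of 1.07 (0.903 to 1.28), 0.662 (0.523 to 0.835) and 0.717 (0.582 to 0.881), and an adjusted p of 1.60e-05 in the chi-square test. Thus both were near their 3 month value at 9 months and below it at 15 and 21 months. Windows that match elsewhere made up 23.5% of those of Atp5f1 and 36.4% of those of Atp5h.

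Atp5j, coupling factor F6, had 23, 20, 30 and 8 counts and was highest at 15 months and lowest at 21 months. Its exons overlap those of Gabpa on the other strand, and whether the counting used the strand is not given in the sources used here, so that reads of both genes cannot be told apart. Atp5o, the subunit that confers oligomycin sensitivity, had 28, 39, 25 and 23 counts, did not pass the test, and overlaps Donson on the same strand. In all, the exons of 10 tested members overlapped another gene, among them Cox5a, Uqcrc2 and Atp5f1, each with a gene on the other strand.

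The subunit of the c-ring is encoded by 3 genes that yield the same mature protein. Atp5g3 had 188, 191, 113 and 137 counts, with ratios of 1.04 (0.845 to 1.28), 0.999 (0.784 to 1.27) and 0.921 (0.734 to 1.15). Its variance of clr of 0.00255 was the lowest of all members and below its counting noise of 0.00668. Atp5g1, in contrast, had 124, 49, 55 and 69 counts, with ratios of 0.404 (0.284 to 0.567), 0.737 (0.527 to 1.02) and 0.704 (0.516 to 0.952). Atp5g2 had 2, 7, 5 and 5 counts, and all of its windows matched elsewhere. The 3 genes together were at 0.804 (0.678 to 0.953), 0.916 (0.756 to 1.11) and 0.850 (0.710 to 1.01) of their 3 month value.

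Of the membrane subunits, Atp5l (subunit g) had 287, 272, 87 and 127 counts, with ratios of 0.969 (0.818 to 1.15), 0.504 (0.392 to 0.643) and 0.560 (0.450 to 0.692), and 54.5% of its windows matched elsewhere. Atp5k (subunit e) had 215, 168, 89 and 120 counts, with ratios of 0.799 (0.649 to 0.982), 0.688 (0.531 to 0.885) and 0.706 (0.560 to 0.886). These subunits, which hold dimers of the synthase together, were both lower at 15 and 21 months than at 3 months. Atp5j2 (subunit f) had 98, 127, 58 and 73 counts and did not pass the test. Atp5l-ps1 and Atp5l2, copies of Atp5l, had 0 counts in all libraries.

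**Figure D5:**
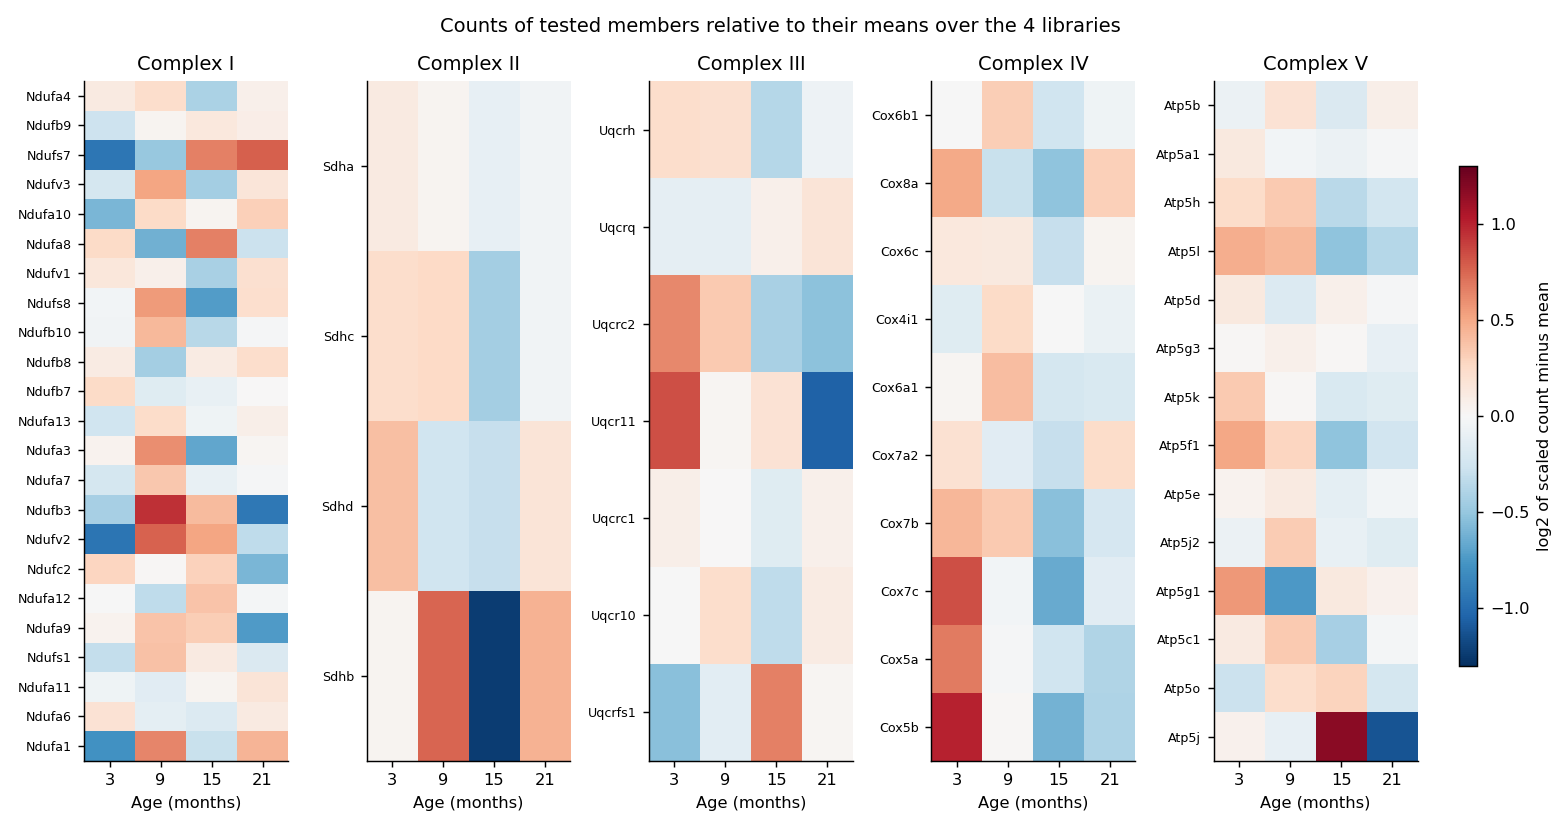
Heat map of tested members in 5 panels by complex, with 1 row per gene and 1 column per age in months; the colour gives the log2 of the scaled count minus the mean of the gene over the 4 libraries, from blue (below) to red (above). In complex IV, Cox5a, Cox5b, Cox7b, Cox7c and Cox8a are reddest at 3 months, whereas in complex I the reddest column differs from gene to gene.

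The highest scaled count of a member was found at 3 months for 20, at 9 months for 24, at 15 months for 8 and at 21 months for 7 of the 59 members, and the lowest at 15 months for 30. Complex I had its highest value at 3 months in only 2 of 24 members and at 9 months in 12, whereas complex IV had it at 3 months in 6 of 10. Among all genes tested, 909 of 2976 were highest in the 3 month and 741 in the 9 month library, and 1086 were lowest at 15 months.

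A trend with age was tested with edgeR's quasi-likelihood test, in which the spread between libraries around a line enters as the error. A gene has 2 residual degrees of freedom of its own. Its spread was drawn towards that of other genes with 63.9 prior degrees of freedom, so that the error comes mostly from them. The background of calls was 0.108% of 5569 genes, and 0 of 70 members passed an adjusted p of 0.05. At an unadjusted p under 0.05 with edgeR, 8 members had a falling and 1 a rising slope (background 2.73% and 2.48%). The 8 were Uqcr11, Uqcrc2, Cox5a, Cox5b, Cox7c, Atp5f1, Atp5l and Cox4nb. Counting both directions, 6 of the 25 members with a window that matches elsewhere had such a p with edgeR. Of the 45 members with no such window, 3 did. DESeq2 called 0 of 84 members and 0 of all 15067 genes, so that it says nothing about the members. Ndufs7 was the 1 with a rising slope, of 0.64 on the log2 scale per 6 months (adjusted p = 0.0569 with edgeR). The slope of Uqcr11 was -0.51 per 6 months (adjusted p = 0.214 with edgeR). Without the 15 month library both were called by edgeR (adjusted p = 0.0225 and 0.0175, 16 of 5500 genes called), and neither was when another library was left out. Over all alternatives, with edgeR and DESeq2, the adjusted p ranged from 0.0225 to 0.999 for Ndufs7 and from 0.0175 to 0.999 for Uqcr11.

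The variance of clr over the 4 ages, which the study used as its measure of stability, was below the median of all genes (0.160) for 57 of 76 members with a count in every library. The mean of clr was above the median for 67 of the 76, and both criteria were met by 56 of them (73.7%; background 38.1%). High counts lower the counting noise in this variance. Among genes with at least 80 counts, the median variance was 0.0498 for the 59 members and 0.0564 for all genes tested. The variance was below the counting noise of the gene for 11 of the 59 members, 6 of them of complex I and 3 of complex V. Atp5h, with a variance of 0.0573, had rank 10 of 14 in complex V, counted from the lowest variance. It met both criteria, and 24.1% of the genes with a count in every library had a lower variance.

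Genes of the same pathway outside the naming rule were taken from fixed lists. The 13 subunits encoded in mitochondrial DNA were listed at 0 counts in every library. Of other subunits, electron carriers and carriers of phosphate or ADP and ATP, 6 had at least 80 counts and 3 differed between the libraries. This is near the background of 45.9% of all genes tested. Slc25a3, the phosphate carrier that supplies the ATP synthase, had 386, 197, 94 and 122 counts, with log2 ratios of -0.94, -1.30 and -1.32. Slc25a5, an ADP/ATP carrier, had 521, 557, 212 and 521 counts and was lowest at 15 months. Etfdh, which feeds electrons from fatty acid oxidation into ubiquinone, had 100, 66, 39 and 76 counts. Cyc1, the cytochrome subunit of complex III, had 145, 117, 68 and 103 counts and did not pass the test.

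Assembly factors had few reads. Of 28 outside the rule that were in the files, 3 had at least 80 counts and 2 of these differed between the libraries (background 45.9% of all genes tested). Cox19, a copper-related factor of complex IV, had 13, 28, 44 and 26 counts, with log2 ratios of 1.14, 2.49 and 1.34, in the opposite direction to most subunits of that complex. Lrpprc, which stabilises mitochondrial mRNAs, had 61, 28, 26 and 28 counts. Of 14 regulators of mitochondrial biogenesis, Sirt3 alone reached 80 counts (30, 21, 23 and 20), and it did not pass the test.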

How the data were processed

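Liver RNA of 4 ages was pooled by the authors to 1 library per age. They depleted uncapped RNA, sequenced 35 base reads and mapped them to mm9 with the CLC Genomic workbench, and per the labels HTSeq was used. The deposited values are raw counts per gene symbol. Rows for unassigned records were left out (6.67% to 8.42% of the records were on genes). The members, lists and roles were chosen with earlier results of these data known. Every member may be named, with full statistics for those that passed a test, those with most counts and fixed isoform pairs. Positions and windows come from GENCODE M1 (NCBIM37), and promoters from RefSeq. The values of 1 member are not reported here on their own.

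Ratios were calculated on the clr scale, with exact Clopper-Pearson intervals. Genes with at least 80 counts in sum were tested with Pearson's chi-square test and Benjamini-Hochberg adjustment, and a linear age trend with edgeR 4.0.16 (TMM, filterByExpr). Both were tested on simulated data. The counting noise of a variance is the mean of the reciprocal counts. Alternatives were other scale factors (TMM, DESeq2, library totals), filters, a fold of 2, a pseudocount of 1, DESeq2 1.42.0 and the omission of each age. A count limited to subunits and a 9 month baseline were chosen after the data had been seen. R 4.3.3, Python 3.11.15, scipy 1.17.1 and matplotlib 3.10.9 were used.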

Additional observations from a re-analysis of the deposited data

How the results depend on the processing

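With 1 library per age, no result has an error between pools, and 15 months, with the fewest reads, has the widest intervals. No paired analysis was possible because each age had 1 library and the labels give no shared replicate numbers. Of the recomputed values of the main results, 191 stayed within the limits set and 27 moved. Some near 0 changed sign within these limits: the median log2 ratio of the members at 9 months was -0.00, but 0.03 with TMM, 0.01 with DESeq2 size factors, 0.06 with at least 40 counts or at least 20 in 1 library, and 0.04 for members with no window matching elsewhere, and complex II at 9 months was -0.03, but 0.01 with TMM.

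The cause of the following shifts was not tested. With members that have no window matching elsewhere, which are fewer by construction, 16 members passed the chi-square test, 5 were lower at 9 months, 8 were lower at 15 months, and 2 were higher and 5 lower at 21 months. In those members the log2 ratio was -0.19 and -0.20 for complex III at 15 and 21 months, -0.36 for complex IV at 9 months, and -0.15 and -0.12 for complex V at 15 and 21 months. With a fold of 2, 3 were higher and 1 lower at 9 months, 6 were lower at 15 months, and 2 were higher and 5 lower at 21 months. With at least 160 counts, 3, 2 and 2 members were higher at 9, 15 and 21 months. At 21 months, 8 were higher with at least 40 counts and 7 with at least 20 counts in 1 library. With library totals, 10 were lower at 15 months, and the log2 ratios at 15 months were 0.26 for complex I, -0.47 for complex IV and -0.20 for complex V. Without the member with the most counts, complex I was at 0.27 at 15 months and complex IV at -0.27 at 9 months. When each library was left out in turn, the chi-square test called 21 to 31 members, the age trend 0 to 2, and the median variance of clr of the members was 0.0476 to 0.0722.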
